A study of Mus musculus with 8 samples.

Results

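The genes described here encode 10 factors that shorten the life of messenger RNA in lymphocytes: the tristetraprolin (TTP) family Zfp36, Zfp36l1 and Zfp36l2, the Regnases Zc3h12a and Zc3h12d, the Roquins Rc3h1 and Rc3h2, and the BTG/TOB genes Btg1, Btg2 and Tob1. They were listed by name, by a rule with no threshold on measured values, although earlier results of these data were known, and all 10 were among the 17384 genes of the table and among the 12340 genes with enough reads to be tested. RNA was sequenced from B220+CD3+ cells sorted from mouse spleen, in 4 libraries of Faslpr mice and 4 libraries of Eaf2-/-Faslpr mice, labelled EAF2Faslpr. Both groups carry the lpr mutation of Fas, which encodes a receptor that triggers apoptosis. Mice with this mutation build up unusual T cells positive for B220, an isoform of CD45. The groups differ in Eaf2, which encodes a partner of the ELL transcription elongation factors. The sources used here do not give the age or sex of the mice, the deleted part of Eaf2 or whether each library came from a separate animal. The p-values therefore rest on the spread between these libraries alone, and that spread may be technical.

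TTP family proteins bind AU-rich elements in the 3′ untranslated region (3′ UTR) of cytokine transcripts and recruit the CCR4-NOT deadenylase, which removes the poly(A) tail. Roquins bind stem-loops in overlapping sets of transcripts, and Regnase-1, the product of Zc3h12a, is an endonuclease that cuts such stem-loops. BTG and TOB proteins carry no sequence-specific RNA-binding domain of the TTP kind and link the CCR4-NOT deadenylase to its targets. In T cells these factors are known as brakes on cytokine production, activation and exit from quiescence.

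Estimated reads per library ranged from 15.56 to 18.64 M (M, megareads), and every member had between 435 and 17297 estimated reads in each library. Eaf2, the targeted gene, was measured at 4.74 ± 1.05 CPM in Eaf2-/-Faslpr and 25.5 ± 4.50 CPM in Faslpr libraries (counts per megaread of the tested genes, SD, n = 4 each), and its groups did not overlap (exact two-sided permutation test over 70 orderings, p = 0.0286, the smallest it allows). Fas was at 64.2 ± 6.87 against 54.3 ± 9.82 CPM, and its groups overlapped. The T cell marker Cd3e was at 557 ± 39.3 CPM in Eaf2-/-Faslpr and 602 ± 52.9 CPM in Faslpr libraries, and 1 of 12 T cell markers, Cd2, rose. Ptprc, the gene of CD45 and the most abundant of these markers, was at 2312 and 1989 CPM, and its B220 isoform was not resolved at the gene level. The B cell marker Ms4a1 was also detected, at 42.8 ± 14.8 CPM in Eaf2-/-Faslpr against 9.58 ± 3.19 CPM in Faslpr libraries.

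Of the 10 decay factors, 4 rose in Eaf2-/-Faslpr cells and none fell: Tob1 (1.98-fold), Zfp36 (1.96-fold), Btg1 (1.60-fold) and Zc3h12a (1.59-fold). Among all genes tested, 7.14% rose, 4.96% fell and 12.1% changed in either direction (edgeR's quasi-likelihood test, Benjamini-Hochberg adjusted p under 0.05). Each of the 4 genes passed in every one of the 8 fits that left out 1 library. The other 6 members did not pass, and their log2 fold changes lay between −0.08 (Rc3h2) and 0.32 (Zfp36l1). The median log2 fold change of the 10 members was 0.32, against −0.01 over all genes tested. Levels of the groups did not overlap for 6 members, all higher in Eaf2-/-Faslpr cells, where 9.71% of all tested genes were higher without overlap and 17.7% did not overlap in either direction. With upper quartile scaling this held for 5 members. At least 1 factor of the TTP family, the Regnases and the BTG/TOB genes was among those that rose, and neither Roquin was.

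**Figure D1:**
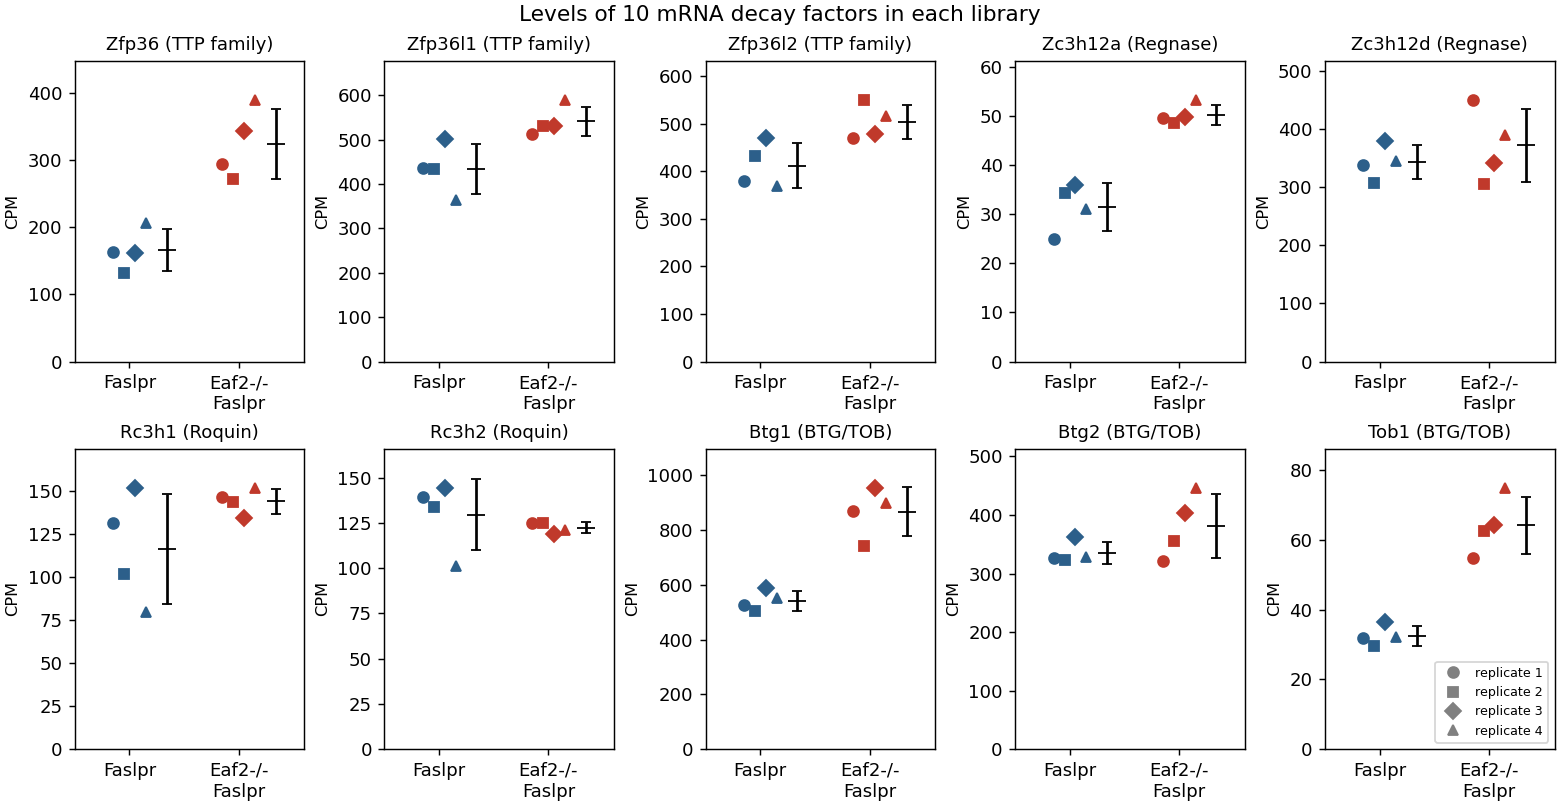
Level of each member in each library, in CPM on a linear axis from 0, with replicates as separate symbols, Faslpr in blue and Eaf2-/-Faslpr in red, and the mean and SD beside each group (n = 4). Zfp36, Zc3h12a, Btg1, Tob1, Zfp36l1 and Zfp36l2 show no overlap between groups, and the other 4 members overlap.

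**Figure D2:**
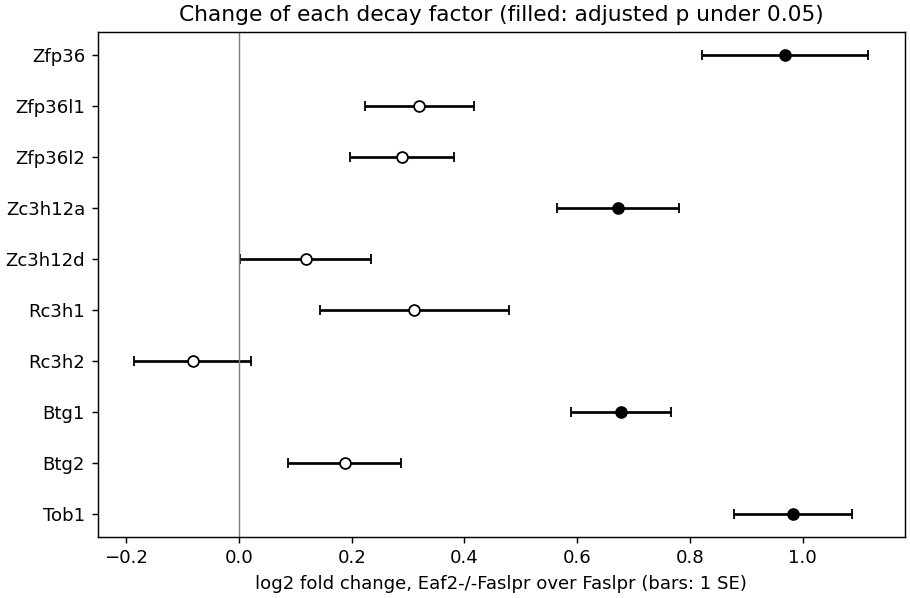
Log2 fold change of each member, Eaf2-/-Faslpr over Faslpr, with 1 SE to each side. Filled points are the 4 members with an adjusted p under 0.05, and Rc3h2 is the 1 member with a negative value.

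Zfp36 (gene ID 22695) encodes tristetraprolin, the founding member of its family and an immediate early gene of stimulated lymphocytes. Its level was 294, 272, 343 and 389 CPM in Eaf2-/-Faslpr replicates 1 to 4 and 163, 131, 162 and 207 CPM in Faslpr replicates 1 to 4. The lowest Eaf2-/-Faslpr library, replicate 2, lay above the highest Faslpr library, replicate 4. The log2 fold change was 0.97 (SE 0.15, adjusted p = 0.00224), and it ranged from 0.87 to 1.09 over the 16 other settings tried, with a largest adjusted p of 0.0092.

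Zfp36l1 (gene ID 12192) and Zfp36l2 (gene ID 12193) encode the paralogues of tristetraprolin, which are present in resting lymphocytes and act in T cell and B cell development. Zfp36l1 was at 513, 531, 531 and 588 CPM in Eaf2-/-Faslpr and at 436, 434, 500.3 and 363 CPM in Faslpr replicates 1 to 4. Faslpr replicate 3 came close to the lowest Eaf2-/-Faslpr library, and the groups did not overlap. The difference of 0.32 on the log2 scale (SE 0.10) did not pass (adjusted p = 0.0584), but it passed by DESeq2 (adjusted p = 0.0172), in the fit that left out Faslpr replicate 3 (adjusted p = 0.0211) and with upper quartile scaling (adjusted p = 0.0470). Zfp36l2 was at 469.9, 549, 478 and 516 CPM in Eaf2-/-Faslpr and at 379, 431, 468.7 and 369 CPM in Faslpr replicates 1 to 4. Here the groups all but met, at Eaf2-/-Faslpr replicate 1 and Faslpr replicate 3. Its log2 fold change was 0.29 (SE 0.09, adjusted p = 0.0708), and it too passed by DESeq2 (adjusted p = 0.0273) and in the fit that left out Faslpr replicate 3 (adjusted p = 0.0296). Without Faslpr replicate 3, 6 of the 10 members therefore passed. That fit called 940 of 12485 tested genes higher and 659 lower, against 881 and 612 of 12340 in the reported fit. It left out the Faslpr library that was the highest of its group for 9 of the 10 members.

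Per gene length, on the authors' FPKM scale, the 3 TTP family genes summed to between 481 and 574 FPKM in Eaf2-/-Faslpr and between 346 and 399.6 FPKM in Faslpr libraries. Zfp36 made up 36.4 ± 3.41% of that sum in Eaf2-/-Faslpr and 26.8 ± 5.51% in Faslpr cells (SD, n = 4). The share in Faslpr replicate 4, 34.4%, lay within the Eaf2-/-Faslpr range of 31.9% to 39.4%, so the shares overlapped although the levels did not. Zfp36l1 took 35.6 ± 0.868% against 40.7 ± 3.56%, and Zfp36l2 28.0 ± 2.65% against 32.6 ± 2.47% of the sum.

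The AU-rich heptamer TATTTAT, written as DNA, is the core that TTP family proteins bind, and it stands in the 3′ UTRs of the TTP genes as well as in cytokine transcripts. The stretches below show it for the TTP family and for Tnf, Rel and Lta, transcripts that rose and are described further on. They were read from GENCODE M21 transcripts on build GRCm38, 1 principal transcript per gene, whereas the deposited counts were made on GRCm39. Each lies in a 3′ UTR and is written 5′ to 3′ on the transcript strand, with heptamers in capitals.
Zfp36, chr7:28376958-28376987, minus strand: ccttTATTTATgacgacttTATTTATtgta
Zfp36l1, chr12:80108426-80108446, minus strand: caaaacgTATTTATtgccaaa
Zfp36l2, chr17:84184918-84184938, minus strand: tttaactTATTTATtatcttg
Tnf, chr17:35199681-35199710, minus strand: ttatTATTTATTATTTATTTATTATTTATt
Lta, chr17:35203388-35203417, minus strand: aagtTATTTATTTATagagaatagaaagag
Rel, chr11:23739880-23739900, minus strand: tagtagcTATTTATtagaaaa

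The sense strand alone was searched and overlapping copies were counted. Zfp36 held 3 copies in a 3′ UTR of 774 bases. Of the 687 tested genes with a 3′ UTR within 10% of that length, 19.8% held at least 1 copy and 1.02% at least 3. Zfp36l1 and Zfp36l2 also held 3 copies each, in 3′ UTRs of 1835 and 1822 bases. At these lengths 39.2% and 38.7% of tested genes had a copy, and 4.13% and 4.27% had at least 3. The longer nonamer TTATTTATT, which contains the heptamer, occurred once in each of these 3 genes and also once in Rc3h1 and in Rc3h2. At the lengths of Zfp36, Zfp36l1 and Zfp36l2, 5.24%, 9.11% and 9.12% of tested genes held the nonamer. Rc3h1 held 2 copies of the heptamer, Rc3h2 3 and Btg2 1, in 3′ UTRs of 7181, 5160 and 2199 bases. At these lengths 43.8%, 13.1% and 41.4% of tested genes held at least as many. The 3′ UTRs of Zc3h12a, Zc3h12d, Btg1 and Tob1 held none. Of the 4 members that rose, then, Zfp36 alone had a match, and the 2 other members of its family had as many copies. Among the target transcripts described further on that rose, Tnf held 8 copies, Lta 3 and Rel 2. At their 3′ UTR lengths 0.146%, 1.08% and 35.0% of tested genes held at least as many. Nfkbid, Nfkbiz, Ctla4 and Tnfrsf4 rose and held no copy. Of tested targets that did not pass, Ifng, Il10, Ier3 and Notch1 held 4 copies each, Tfrc 2 and Irf4 1. For these 0.633%, 0.446%, 0.604%, 1.05%, 14.6% and 57.6% of tested genes of like length held at least as many. Myc and Icos, which did not pass either, held none. Matches are a description of the sequence and show no binding.

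**Figure D3:**
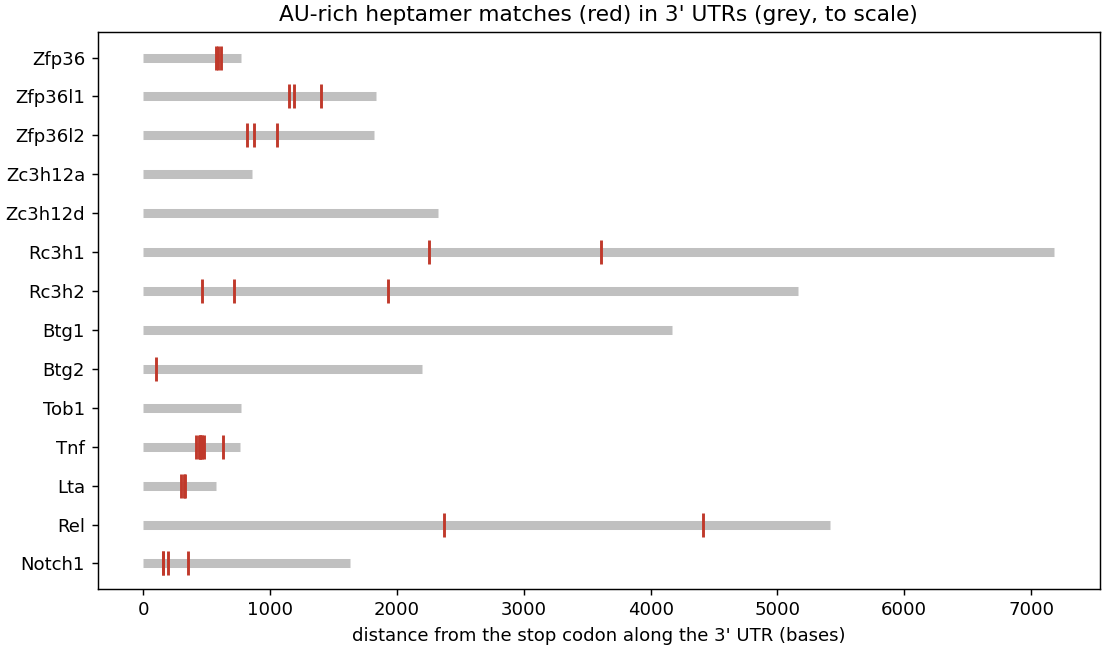
Position of each TATTTAT match (red) along the 3′ UTR (grey bar), in bases from the stop codon, for the 10 members and for Tnf, Lta, Rel and Notch1. The matches of Zfp36, Tnf and Lta lie close together in short 3′ UTRs, and 4 members have none.

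Zc3h12a (gene ID 230738), which encodes Regnase-1, was at 49.6, 48.6, 49.7 and 53.2 CPM in Eaf2-/-Faslpr and at 24.9, 34.4, 35.9 and 31.0 CPM in Faslpr replicates 1 to 4. The Eaf2-/-Faslpr libraries lay within a narrow range, well above the highest Faslpr library. The log2 fold change was 0.67 (SE 0.11, adjusted p = 0.00304), and the largest adjusted p over the other settings was 0.0282, without both replicates numbered 4. Zc3h12d (gene ID 237256), which encodes Regnase-4, a relative described in lymphocytes, ranged from 306 to 449.7 CPM in Eaf2-/-Faslpr and from 308 to 379 CPM in Faslpr libraries. Its groups overlapped, and the difference did not pass (log2 fold change 0.12, SE 0.12, adjusted p = 0.595). Per gene length Zc3h12d stood far above Zc3h12a in both groups, at 93.1 ± 15.3 against 18.3 ± 0.693 FPKM in Eaf2-/-Faslpr and 85.2 ± 7.26 against 11.4 ± 1.83 FPKM in Faslpr cells. Zc3h12a thus supplied 16.6 ± 2.09% of the summed FPKM of this pair in Eaf2-/-Faslpr and 11.8 ± 1.76% in Faslpr cells, shares that overlapped at 13.8% and 13.9%.

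Rc3h1 (gene ID 381305) and Rc3h2 (gene ID 319817) encode Roquin-1 and Roquin-2, which act redundantly on transcripts such as that of the costimulatory receptor ICOS. Rc3h1 was at 146, 143, 134 and 151.6 CPM in Eaf2-/-Faslpr and at 131, 101, 151.5 and 79.3 CPM in Faslpr replicates 1 to 4. The Faslpr libraries were spread widely, with an SD of 31.9 CPM against 7.19 CPM, and they reached into the Eaf2-/-Faslpr range through replicate 3. The log2 fold change was 0.31 (SE 0.17, adjusted p = 0.290). Rc3h2 ranged from 119 to 125 CPM in Eaf2-/-Faslpr and from 101 to 144 CPM in Faslpr libraries, with a log2 fold change of −0.08 (SE 0.10, adjusted p = 0.691). Neither Roquin passed under any of the 16 other settings. The share of Rc3h1 in the summed FPKM of both Roquins was 47.9% to 50.5% in Eaf2-/-Faslpr and 38.2% to 46.1% in Faslpr libraries, without overlap, while the sum itself overlapped (26.9 ± 0.639 against 25.0 ± 4.92 FPKM).

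Tob1 (gene ID 22057), known as a gene of quiescent T cells whose product restrains proliferation, had the smallest p of the 10 members. It was at 55.0, 62.7, 64.3 and 75.0 CPM in Eaf2-/-Faslpr and at 31.8, 29.5, 36.4 and 32.3 CPM in Faslpr replicates 1 to 4. Every Eaf2-/-Faslpr library lay above every Faslpr library by a wide margin. The log2 fold change was 0.98 (SE 0.10, adjusted p = 0.000311), between 0.90 and 1.05 over the other settings. Btg1 (gene ID 12226), which is linked to the quiescent state of naive T cells, was the most abundant member in CPM. Its level was 871, 742, 953 and 898 CPM in Eaf2-/-Faslpr and 525, 504, 586 and 551 CPM in Faslpr replicates 1 to 4. Its groups were likewise far apart, with a log2 fold change of 0.68 (SE 0.09, adjusted p = 0.00105).

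Btg2 (gene ID 12227), the close relative of Btg1 and a known target of p53, did not follow it. It was at 322, 355, 403 and 446 CPM in Eaf2-/-Faslpr and at 326, 324, 363 and 327 CPM in Faslpr replicates 1 to 4. Eaf2-/-Faslpr replicate 1 lay below every Faslpr library, while replicates 3 and 4 lay above them all. The log2 fold change was 0.19 (SE 0.10, adjusted p = 0.289), and no setting tried brought it past the threshold. Within the summed FPKM of Btg1, Btg2 and Tob1, the share of Btg2 was 34.6% to 40.6% in Eaf2-/-Faslpr and 46.2% to 48.1% in Faslpr libraries, without overlap. The share of Tob1 was 8.78 ± 0.782% against 6.28 ± 0.202%, and that of Btg1 53.1 ± 3.38% against 46.6 ± 0.690%. The summed level of the 3 genes was 295 to 361 FPKM in Eaf2-/-Faslpr and 221 to 254.5 FPKM in Faslpr libraries.

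Promoter windows of RefSeq genes on GRCm38.p6, from 250 bases before to 50 bases after the start site, matched 9 of the 10 members; Zfp36l2 was not matched. Those of the 4 members that rose are printed. They were searched on both strands for a serum response element (CArG box), a site of the EGR factors (GCGNGGGCG), the cyclic AMP response element (CRE) TGACGTCA and its core TGACG, the AP-1 site TGANTCA, an NF-kB site and the TATA box TATAAA. A full CRE contains the core on both strands. Capitals mark every match, and the strand named is that of the gene.
Zfp36, chr7:28379179-28379478, minus strand: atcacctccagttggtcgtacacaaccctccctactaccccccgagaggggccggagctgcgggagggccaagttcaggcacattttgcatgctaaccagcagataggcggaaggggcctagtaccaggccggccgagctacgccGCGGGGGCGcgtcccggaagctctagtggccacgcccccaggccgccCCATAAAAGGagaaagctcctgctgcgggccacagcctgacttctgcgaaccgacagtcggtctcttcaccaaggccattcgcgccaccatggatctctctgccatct
Zc3h12a, chr4:125127832-125128131, minus strand: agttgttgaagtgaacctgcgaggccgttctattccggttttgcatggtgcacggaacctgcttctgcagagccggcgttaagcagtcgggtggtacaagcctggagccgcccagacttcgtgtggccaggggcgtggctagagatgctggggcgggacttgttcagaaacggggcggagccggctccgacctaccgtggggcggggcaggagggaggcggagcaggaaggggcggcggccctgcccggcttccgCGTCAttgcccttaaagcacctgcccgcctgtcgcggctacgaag
Btg1, chr10:96616751-96617050, plus strand: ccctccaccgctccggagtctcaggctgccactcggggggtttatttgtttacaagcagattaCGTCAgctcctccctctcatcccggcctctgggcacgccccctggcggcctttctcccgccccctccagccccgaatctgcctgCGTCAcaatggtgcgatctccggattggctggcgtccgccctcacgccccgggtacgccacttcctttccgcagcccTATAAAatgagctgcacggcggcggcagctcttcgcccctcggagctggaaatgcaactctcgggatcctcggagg
Tob1, chr11:94211204-94211503, plus strand: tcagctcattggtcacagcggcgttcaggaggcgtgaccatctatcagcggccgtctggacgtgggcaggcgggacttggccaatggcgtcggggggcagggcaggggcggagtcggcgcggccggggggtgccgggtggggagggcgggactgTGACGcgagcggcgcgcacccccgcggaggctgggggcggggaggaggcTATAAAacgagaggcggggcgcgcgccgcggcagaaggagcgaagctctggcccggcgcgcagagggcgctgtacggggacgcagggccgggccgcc

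Positions are counted from the start site as 0. Zfp36 held a CArG box at −58 to −49, which 1.22% of the 12560 promoter windows of tested genes held, and an EGR site at −105 to −97, held by 10.1% of windows. Btg1 held the CRE core at 2 places and Tob1 and Zc3h12a at 1 each, the last within the transcript, whereas 30.3% of windows of tested genes held it. A TATA box stood at −26 to −21 in Btg1, at −47 to −42 in Tob1 and at −29 to −24 in Zfp36l1, which did not pass, and 7.27% of windows held one. Among members that did not pass, Btg2 held a full CRE, as 2.99% of windows did, and an EGR site, and Rc3h1 and Zfp36l1 each held an AP-1 site, as 5.08% of windows did. No single motif was present in all 4 printed windows. A match shows the letters only, and none of the 9 windows matched the NF-kB site, which 10.3% of windows held.

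The order of the 10 members by level per gene length was described on the FPKM scale. In Faslpr cells Zfp36l1 was the most abundant member at 147 ± 19.3 FPKM, followed by Zfp36l2 (118 ± 13.9), Btg2 (109.9 ± 6.58), Btg1 (109 ± 7.49) and Zfp36 (96.2 ± 18.0). From Zfp36l2 down to Zfp36, each gene differed from the next in this order by less than the larger of their SDs. In Eaf2-/-Faslpr cells Zfp36 stood first at 189.9 ± 30.6 FPKM, beside Zfp36l1 at 185 ± 10.7 and Btg1 at 175 ± 18.9 FPKM, which lay within 1 SD of it. Zfp36 thus ranked 5 of 10 in Faslpr cells and 1 in Eaf2-/-Faslpr cells, or 2 without Eaf2-/-Faslpr replicate 4. Zc3h12d ranked 6 and Tob1 7 in both groups. A lower tier was formed by Tob1, Zc3h12a, Rc3h1 and Rc3h2, between 13.2 and 29.0 FPKM in Eaf2-/-Faslpr and between 10.5 and 14.7 FPKM in Faslpr cells.

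**Figure D4:**
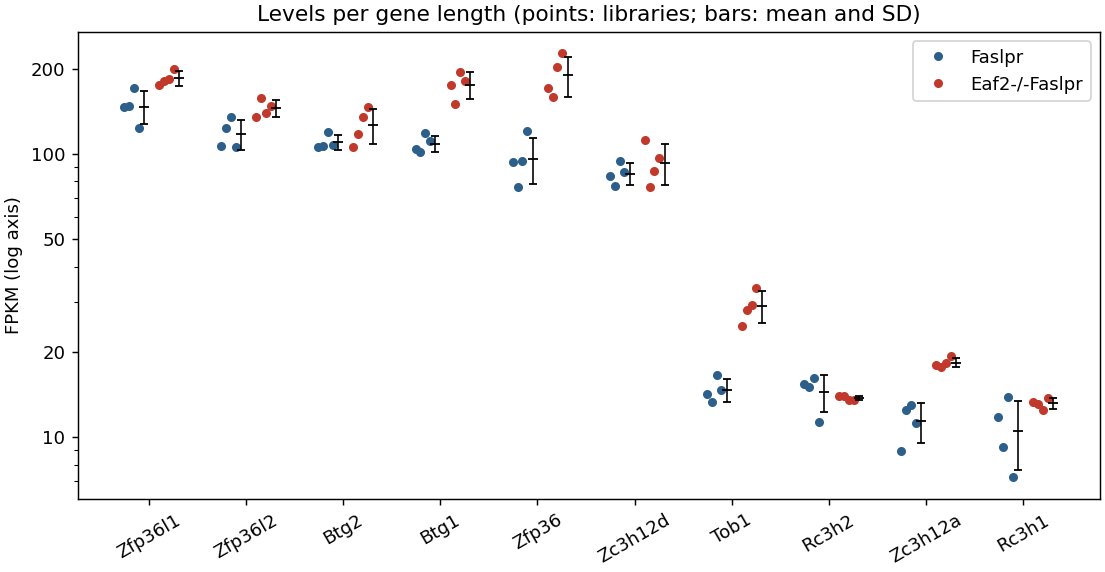
FPKM of each member in each library on a log axis, ordered by the Faslpr mean, with mean and SD (n = 4). Zfp36 moves from rank 5 in Faslpr to rank 1 in Eaf2-/-Faslpr cells, and Tob1, Rc3h2, Zc3h12a and Rc3h1 form a lower tier.

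Some libraries were high or low for many members. Eaf2-/-Faslpr replicate 4 was the highest of its group for 6 of the 10 members and the lowest for none. Faslpr replicate 3 was the highest of its group for 9 members, and the exception was Zfp36, which was highest in Faslpr replicate 4. The lowest Faslpr library was replicate 2 for 5 members, replicate 4 for 4 members, among them both Roquins, and replicate 1 for 1 member. Eaf2-/-Faslpr replicates 1 and 2 were each the lowest of their group for 4 members, and replicate 3 for 2. These counts were made over the members alone. Whether the same libraries were high or low over all tested genes was not examined.

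For Tob1, the 5 tested genes of at least 5 CPM whose centred log2 profile over the 8 libraries lay nearest were Ier5, Cenpu, Dnajb9, Btbd11 and Siah2. The root mean square differences from Tob1 were 0.0779 for Ier5 and between 0.138 and 0.145 for the other 4, on the log2 scale, against a median of 0.533 over the 9926 genes compared. Ier5, an immediate early gene, was at 251 ± 46.4 CPM in Eaf2-/-Faslpr and 125 ± 11.1 CPM in Faslpr cells. The profiles share the 8 libraries and the 2 groups.

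Of 10 tested relatives and regulators of these factors, 1 rose and 1 fell, where 7.14% and 4.96% of all tested genes did, and their median log2 fold change was 0.11. Zc3h12c, a further Regnase, rose from 0.336 ± 0.128 to 1.27 ± 0.393 CPM (log2 fold change 1.89, adjusted p = 0.00842), a level far below that of Zc3h12a. Its reads were few, 24 in total over the Faslpr and 89 over the Eaf2-/-Faslpr libraries. Faslpr replicate 1, at 0.172 CPM, lay at the level of 3 reads. Btg3 fell 1.35-fold, from 71.1 ± 8.73 to 52.5 ± 4.34 CPM (adjusted p = 0.0181), opposite in direction to Btg1. That call was lost without Eaf2-/-Faslpr replicate 2 and without Faslpr replicate 2 (adjusted p up to 0.0525).

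The machinery that carries out decay gave few calls. Of 16 genes listed for deadenylation, none rose and 1 fell, at a median log2 fold change of 0.01. The list held Cnot genes, named for the CCR4-NOT deadenylase to which TTP, BTG and TOB proteins bind. It also held Pan2, Pan3, Parn and the poly(A)-binding protein genes Pabpc1 and Pabpc4. None of the Cnot genes passed. The gene that fell was Parn, a poly(A)-specific ribonuclease outside CCR4-NOT, at 46.2 ± 3.31 against 57.5 ± 1.67 CPM (adjusted p = 0.0176). Its call was lost without Eaf2-/-Faslpr replicates 3 or 4 or Faslpr replicate 2 (adjusted p up to 0.0590). By edgeR none of 14 decapping and 5′ to 3′ decay genes passed, with 4 at an unadjusted p under 0.05 and 1 passing by DESeq2, and none of 15 exosome and SKI genes, with 3 at an unadjusted p under 0.05 and 0 by DESeq2. Their median log2 fold changes were −0.07 and −0.12. Among 10 other AU-rich element binding proteins, such as HuR, which stabilises transcripts, none passed by edgeR, 1 had an unadjusted p under 0.05 and 1 passed by DESeq2. The differences between the members and these lists were not tested.

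Of 24 transcripts known as targets of TTP, Regnase-1 or Roquin proteins, 15 had enough reads to be tested, 7 of these rose and none fell, where 7.14% of all tested genes rose. The median log2 fold change of the 15 was 0.46. Without Eaf2-/-Faslpr replicate 3, 4 of them rose. Tnf, the cytokine whose AU-rich element is the best-known TTP site, rose from 2.48 ± 0.566 to 11.3 ± 3.50 CPM (adjusted p = 0.000534), with 8 heptamers in a 3′ UTR of 764 bases. The NF-kB genes Nfkbid, Nfkbiz and Rel, targets of Regnase-1 or Roquins, rose 1.72-fold, 1.50-fold and 1.57-fold, to 27.9 ± 2.41, 129 ± 15.1 and 127 ± 7.24 CPM. These genes and Tnf passed in all 8 fits that left out 1 library. Ctla4, an inhibitory receptor, rose 1.38-fold and lost its call without Eaf2-/-Faslpr replicate 3 or Faslpr replicate 1 (adjusted p up to 0.0549).

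The remaining targets that passed, Tnfrsf4 (OX40, 8.92 ± 1.47 against 5.41 ± 1.06 CPM) and Lta (4.22 ± 1.48 against 2.12 ± 0.334 CPM), were lowly expressed and passed in 2 and 1 of the 8 fits that each left out a library, with largest adjusted p-values of 0.0795 and 0.124. Of the most abundant targets that did not pass, Icos was at 129 ± 24.9 against 98.4 ± 17.0 CPM without overlap between groups (adjusted p = 0.139), and Notch1 at 133 ± 26.3 against 104 ± 18.6 CPM (adjusted p = 0.187). Tfrc had a log2 fold change of 0.22 and Myc one of −0.17, and the groups of both overlapped. The cytokine genes Ifng and Il10 did not pass either, and their groups overlapped. Their log2 fold changes were −0.29 (adjusted p = 0.564) and 0.24 (adjusted p = 0.787). Il10 was at 33.7 CPM in Eaf2-/-Faslpr replicate 1 and at 8.39 to 10.8 CPM in the other Eaf2-/-Faslpr libraries. Il2, Csf2, Il4, Il6, Il23a, Ptgs2 and Cxcl2 had too few reads to be tested, and Il3 and Il17a were not matched in the table. Higher target transcripts and higher decay factors were thus measured in the same libraries. Transcript levels alone give no decay rates and no protein levels.

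**Figure D5:**
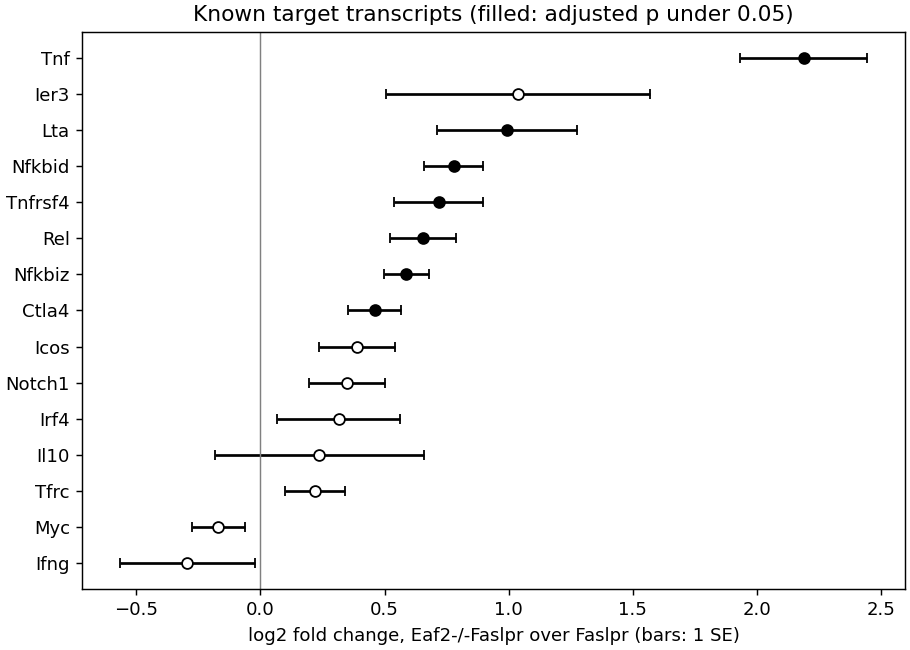
Log2 fold change of the 15 tested target transcripts, Eaf2-/-Faslpr over Faslpr, with 1 SE to each side. Filled points are the 7 with an adjusted p under 0.05, from Ctla4 at 0.46 up to Tnf at 2.19.

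Other gene groups moved in the same libraries as the decay factors, and their part in the result was not tested. Of 20 tested immediate early genes, a list that leaves out Zfp36, 12 rose and 1 fell, where 7.14% and 4.96% of all tested genes did. Dusp1 (9.67-fold), Junb (3.02-fold), Nr4a1 (1.81-fold), Jun and Klf4 had the smallest p of those that rose, with log2 fold changes of 5.97 for Jun and 2.50 for Klf4. Egr1 (407 ± 50.4 against 413 ± 98.1 CPM) and Egr2 (446 ± 27.9 against 463 ± 59.1 CPM), abundant genes of the same list, did not pass. Nr4a3 fell by 0.55 on the log2 scale (adjusted p = 0.0282), a call lost in 5 of the 8 fits that left out 1 library (adjusted p up to 0.0765). All 15 B cell markers rose, and their summed level was 420 to 783 CPM in Eaf2-/-Faslpr and 115 to 187 CPM in Faslpr libraries. Among 9 MHC class II genes 7 rose, with sums of 589.8 to 1033 against 262 to 428 CPM, macrophage markers rose in 2 of 11, and none of 4 tested neutrophil markers passed by edgeR, with 4 at an unadjusted p under 0.05. Lyz2, 1 of the 2 macrophage markers that rose, was at 75.1 CPM in Eaf2-/-Faslpr replicate 3, at 6.36 to 10.5 CPM in the other Eaf2-/-Faslpr libraries and at 2.06 to 5.94 CPM in Faslpr libraries. Its call was lost without Faslpr replicate 1, 2 or 4 (adjusted p up to 0.112), and DESeq2 gave it no adjusted p. S100a8, a neutrophil marker, was at 24.9 CPM in that same library, at 0.655 to 1.60 CPM in the other Eaf2-/-Faslpr libraries and at 0.344 to 0.770 CPM in Faslpr libraries. The sums of the B cell, class II, macrophage and neutrophil lists were all highest in Eaf2-/-Faslpr replicate 3. Without that library Zfp36, Tob1, Btg1 and Zc3h12a still passed, with log2 fold changes of 0.94, 0.98, 0.63 and 0.68. Leaving it out did not remove the difference in B cell markers. Their sums were 420 to 440 CPM in the other Eaf2-/-Faslpr libraries, against 115 to 187 CPM in Faslpr libraries. The part of these cells in the member results was therefore not tested by that fit. In sorted populations of this kind, more cells of a type and more RNA per cell cannot be told apart.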

How the data were processed

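TRIzol extraction and a DNBSEQ mRNA kit were used, per the labels' protocols. For each gene and library the authors deposited FPKM values and estimated counts without depth scaling. RSEM 1.3.1, HISAT2 2.2.1, Bowtie2 2.4.5 and the build GRCm39 are named, with no role or order, in the submitters' processing notes. The sources used here do not give the annotation, filters or strand setting. A further 16 per-sample columns were not used.

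Groups and replicate numbers came from sample titles. Estimated counts were rounded to whole numbers, filtered with filterByExpr, scaled with TMM factors and tested with edgeR 4.0.16 (glmQLFit, glmQLFTest; R 4.3.3), over 8 libraries without covariates, with Benjamini-Hochberg adjustment over all 12340 tested genes. Passing means an adjusted p under 0.05. SE is the absolute log2 fold change over the square root of F. Levels between genes used the authors' FPKM. Alternatives were DESeq2 1.42.0, limma-voom 3.58.1, other scalings and filters, a replicate block and leaving out libraries. Within groups, libraries varied beyond sampling noise (chi-square per degree of freedom 8.97 to 35.0).

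Members and gene lists were chosen with earlier results of these data known. Genes named were the 10 members, Eaf2, Fas, up to 5 passing genes in each direction of each pathway list by smallest p, up to 4 abundant targets that did not pass, defining and most abundant markers, and the 5 genes nearest in profile to the rising member with the smallest p. Not every gene so taken is given. Tnfrsf4, Lta, Ifng, Il10, Ier3, Irf4, Egr1, Egr2 and the untested targets were named after their values were seen. Of the lists of other cell types, the following also gave calls or none: dendritic cells 0 of 4, antibody-secreting cells 1 of 6 (Xbp1, lower), NK cells 3 of 4 (2 higher, 1 lower), and erythroid cells and platelets 0 of 4.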

Additional observations from a re-analysis of the deposited data

Results flagged for a closer look

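Btg2 in the Faslpr group had 1 library far from the others: replicate 3 stood at 363 CPM, while the other 3 lay between 324 and 327 CPM. The gap made up 0.9 of the group's range, above Dixon's 95% critical value for 4 samples. That value is passed by chance in about 1 of 20 groups, and 20 groups (10 members in each of 2 groups) were examined. The same library was the highest of its group for 9 of the 10 members. Without it Btg2 still did not pass.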

How the results depend on the processing

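Over 416 values recomputed under 17 settings other than the reported one, 385 kept their direction and side of the threshold (a count of genes: within 1.5 times). None turned direction. A rescaling per gene length, counted among the 17, applied to ranks by level alone. Zfp36, Zc3h12a, Btg1 and Tob1 passed in all 16 alternatives, and Zc3h12d, Rc3h1, Rc3h2 and Btg2 in none. Leaving out 1 library at a time gave 4 to 6 members passing, Eaf2 from −2.60 to −2.31 on the log2 scale, and a Zfp36 rank of 1 to 2 in Eaf2-/-Faslpr. In those fits the genes that fell numbered 372 to 659 (372 without Faslpr replicate 2) and those that rose 618 to 940. The lower counts ranged from 0 to 1 for deadenylation, 0 to 2 for decapping, 0 to 1 for the exosome, 0 to 1 for relatives and 0 to 2 for immediate early genes, and the higher counts from 1 to 2 for relatives, 0 to 1 for other AU-rich element binding proteins and 4 to 7 for targets. By DESeq2 1 decapping gene was lower and 1 other AU-rich element binding gene higher. Without both replicates numbered 4, chosen after seeing the data, 403 genes fell in all, with 0 deadenylation, 1 decapping and 0 immediate early genes. The cause was not tested. Replicate numbers did not pair the samples: same-numbered deviations correlated at 0.221, 0.246, 0.0314 and −0.0881, and only numbers 1 and 2 matched best with their own. With the replicate block, 4 members passed, 2 immediate early genes fell, and 1284 of the 1493 calls remained. The largest shift of the median of all genes was −0.0132. A floor of 3 reads equals 0.161 to 0.193 CPM, far under every member.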
